A study of Schizosaccharomyces pombe with 384 samples.

Results

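Among the 7259 genes of the deposited expression table, 41 carry a name made of cwf or prp and a number, and these genes were followed across wild type and 94 deletion strains of the fission yeast *Schizosaccharomyces pombe*. The rule that picks the members uses their names and no measured value, although it was set with earlier results of these data known, and each deleted gene was left out of the tests in its own strain. Most of them encode proteins of the spliceosome, the assembly that removes introns from pre-mRNA. It forms anew on each intron: early factors recognise the ends of the intron and the branch point, the tri-snRNP brings the U4, U5 and U6 particles, the Prp19-associated complex joins as the catalytic centre forms, and DEAH-box helicases drive the steps up to the release of the spliced mRNA and the lariat. The prp genes were named after temperature-sensitive mutants defective in pre-mRNA processing, and cwf stands for complexed with Cdc5, the core component with which these proteins were purified. Many *S. pombe* genes contain introns, and most are short.

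Total RNA of haploid strains from the Bioneer deletion library, grown in YES medium in 96-deepwell plates, was measured by 3′ mRNA-Seq. Each of the 94 strains lacks 1 gene and has 4 libraries, grown in 1 well position under 4 replicate numbers. Wild type has 8 libraries, 4 each from the wells A1 and A2, and the design counts them as 2 biological replicates, so the p-values below may measure technical spread in part. Every comparison of a strain with wild type shares these 8 libraries. Values are CPM, the reads of a gene scaled to a common library size, and since this method reads each transcript near its polyadenylated end, CPM of different genes were compared without a correction for length. Reads assigned to genes ranged from 1337485 to 2659644 per library, and a count of 0 allows up to 3 reads, or 0.893 to 2.54 CPM, depending on the library, for counting error only.

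A search by locus in RefSeq (assembly ASM294v3) matched 41 of 41 members. By their coding sequence 23 of them have introns, 40 in all, between 38 and 485 bases long with a median of 51, and 40 of 40 begin with GT and end with AG. With introns outside the coding sequence included, 24 members (58.5%) had an intron in RefSeq, compared with 48.2% of 5124 protein-coding genes. The introns of *cwf19* and *prp4* are shown because these were the members called in the libraries labelled as deleted for *dbr1*, the lariat debranching enzyme. Capitals mark the GT and AG at the ends, which the spliceosome recognises.
cwf19 intron 1 (I:1102291-1102334, minus strand): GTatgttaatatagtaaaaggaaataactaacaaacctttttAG
cwf19 intron 2 (I:1101980-1102022, minus strand): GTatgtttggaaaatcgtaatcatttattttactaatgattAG
prp4 intron 1 (III:1623731-1623838, plus strand): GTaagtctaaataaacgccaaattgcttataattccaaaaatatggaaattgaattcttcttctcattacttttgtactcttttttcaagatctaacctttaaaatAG

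The 250 bases before the RefSeq gene starts of *cwf16* and *cwf2* are shown because both transcripts were most strongly raised in the same strain. Windows of this length were searched on both strands for ACGCGT (the MCB box of G1/S genes), CAGTCACA (the homolD box of ribosomal protein genes) and TGACGT (the core of the CRE bound by Atf1). Among 5123 protein-coding genes these occurred in 2.64%, 2.62% and 5.5% of windows. ACGCGT occurred before 1 of the 41 members, *prp22*, at position -15, and the other motifs before 0. Neither sequence below contains any of the letters searched, so it carries no capitals, which says only that these letters are not in these windows.
cwf16 (I:1489756-1490005, minus strand): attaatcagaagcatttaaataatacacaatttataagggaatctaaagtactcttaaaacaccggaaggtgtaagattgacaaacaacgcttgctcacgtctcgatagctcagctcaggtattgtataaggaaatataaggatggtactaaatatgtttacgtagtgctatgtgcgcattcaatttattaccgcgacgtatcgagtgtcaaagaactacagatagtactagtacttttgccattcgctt
cwf2 (I:1440559-1440808, minus strand): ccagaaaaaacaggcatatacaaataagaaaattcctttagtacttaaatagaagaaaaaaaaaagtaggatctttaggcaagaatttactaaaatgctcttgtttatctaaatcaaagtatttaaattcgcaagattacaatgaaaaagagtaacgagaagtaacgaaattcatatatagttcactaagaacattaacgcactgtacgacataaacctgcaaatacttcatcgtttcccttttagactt

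In wild type, 40 of the 41 members were expressed at low to moderate levels. The median over the 41 members was 29.1 CPM, compared with 16 CPM over all 7259 genes. The highest was *prp19*, the ubiquitin ligase that names the Prp19 complex, with 75.7 CPM at the lowest, 92.6 at the median and 108.4 at the highest of 8 libraries. It was followed by *prp2*, the large subunit of the U2AF factor that binds the 3′ end of introns (48.4, 72.7 and 113.8 CPM). Next came *cwf14*, the Bud31 orthologue (52.2, 62.4 and 74.5 CPM), *prp12*, a subunit of the branch-site complex SF3b (45.6, 59.4 and 71.5 CPM), and the helicase gene *prp43*, which acts in spliceosome disassembly (35.2, 48.6 and 59.9 CPM). The ranges of neighbouring genes in this order overlapped.

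At the lower end stood *cwf20*, which was above 0 in 131 of 384 libraries with 2.17 CPM at the most, and had too few values above the floor of 1.01 CPM to be tested. Above it were *prp24*, a U6 snRNA-binding protein (2.57, 6.96 and 9.88 CPM as lowest, median and highest), and *cwf12*, the Isy1 orthologue (7.18, 8.99 and 15.2 CPM). *cwf5*, the Ecm2 orthologue (4.14, 9.72 and 11.4 CPM), and *cwf23*, a protein with a DnaJ domain (5.24, 10.3 and 14.1 CPM), came next. Members of the early recognition list had wild-type medians from 13.8 to 72.7 CPM, those of the U5 and tri-snRNP list from 11.5 to 43.8 CPM, and those of the Prp19-complex list from 8.99 to 92.6 CPM, so the groups overlapped. Together the 41 members summed to between 1055.5 and 1382.6 CPM in wild type and between 948.4 and 1697.5 CPM in the strain libraries.

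**Figure D1:**
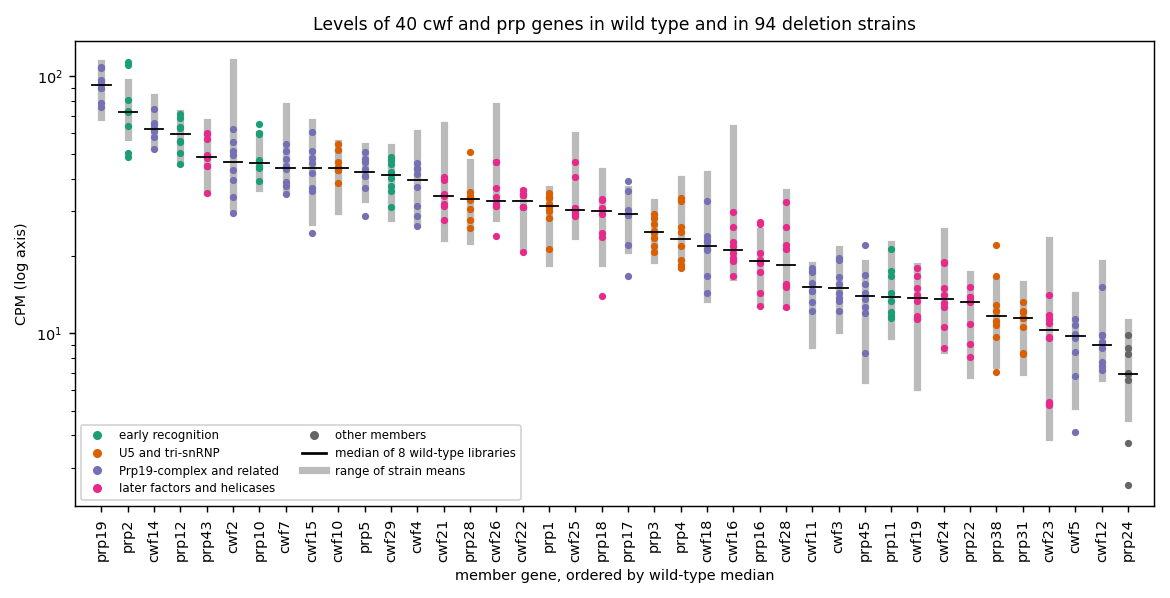
CPM on a log axis of the 40 members that were tested, ordered by wild-type median. Points are the 8 wild-type libraries coloured by functional list, black lines their medians, and grey bars span the lowest to the highest of the 94 strain means; the grey bars reach far above wild type for cwf2 (113.3 CPM), cwf16 (62.8 CPM) and cwf26 (76.9 CPM).

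Whether read counts belong to the member alone is uncertain for many of these genes. In the coordinates of the deposited table (ASM294v2), 28 of the 41 members overlapped another annotated gene, 27 of them one on the opposite strand, and whether counting used the strand is not given in the sources used here. *cwf2*, *cwf16*, *cwf23* and *cwf7* overlapped none. *cwf18*, *cwf21*, *cwf26* and *cwf12* each overlapped a gene on the opposite strand (*apl4*, *rog1*, *tfg1* with SPCC1620.12c, and *gtb1*), *prp4* a non-coding RNA gene, and *cwf19* an antisense RNA, so that their reads may include the partner's.

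Deletion of a member was represented by 2 strains. In the libraries labelled as deleted for *cwf14*, this transcript had 56.7, 55.0, 86.6 and 65.3 CPM, within and above the wild-type range of 52.2 to 74.5 CPM. In those labelled as deleted for *cwf21*, whose product belongs to the Cwc21 and SRRM2 family, it had 87.8, 97.3, 73.6 and 122.3 CPM, all above the wild-type range of 27.7 to 40.4 CPM. In those labelled as deleted for *dbr1*, the *dbr1* transcript had 142.4, 108.3, 78.6 and 134.5 CPM, compared with 11.4 to 23.5 CPM in wild type. Reads of this assay come from the 3′ end, which can lie outside a deleted coding sequence, so these values do not check the labels. Over all 94 strains, the deleted gene lay below all wild-type libraries in 27, above all in 14, and overlapped them in 53. Among the strains named below, *lem2*, *mug154*, *amo1* and *hcr1* were above wild type in their own libraries, and *rpl1602*, *lac1*, SPBC16A3.17c and SPBC17A3.06 overlapped it.

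**Figure D2:**
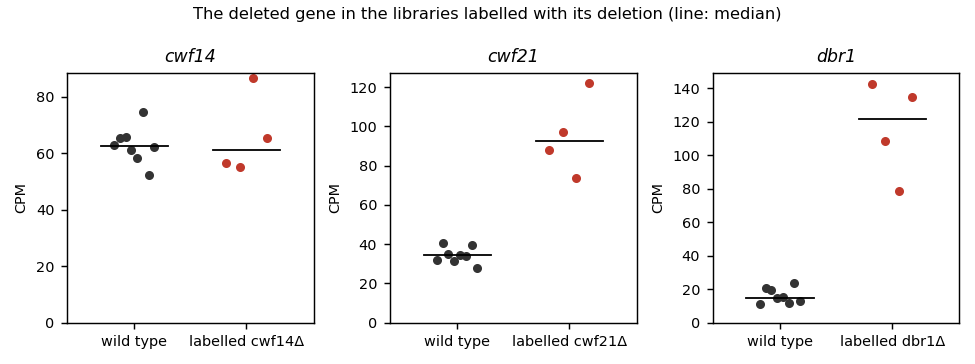
CPM of cwf14, cwf21 and dbr1 in 8 wild-type libraries (dark) and in the 4 libraries labelled with the deletion of that gene (red); lines are medians. The labelled cwf21 (73.6 to 122.3 CPM) and dbr1 (78.6 to 142.4 CPM) libraries lie above all wild-type libraries, while cwf14 overlaps.

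None of the other members passed the thresholds in either of the strains labelled as lacking a member. A transcript was called when limma gave a p of 0.005 or less and its change was 0.6 or more on the log2 scale, up or down. In the *cwf14* libraries 0 of 39 members were called, with 12 higher and 27 lower in direction and 1 at an unadjusted p below 0.05, and 0.368% of 5442 genes were called. In the *cwf21* libraries 0 of 39 members were called, with 24 higher in direction and 0 at an unadjusted p below 0.05 (0.623% of 5459 genes called). Both counts stayed at 0 under all 22 alternative settings run. The median log2 fold change of the members was -0.06 in the *cwf14* and 0.05 in the *cwf21* libraries, compared with 0.00 over all genes in each.

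In the libraries labelled as deleted for *dbr1*, 2 of 40 members were called, and 4.75% of 5474 genes. *cwf19*, whose product is related to the factor that associates with the debranching enzyme in other eukaryotes, had 9.63, 3.85, 4.51 and 11.2 CPM, compared with 11.4, 13.7 and 18 CPM as lowest, median and highest in wild type. All 4 libraries lay below wild type, 1 of them only just, with a log2 fold change of -1.07 ± 0.27 (SE, adjusted p = 0.048, limma with Benjamini-Hochberg adjustment, 0.017 to 0.29 over the alternatives). The call was lost without *dbr1* replicate 2, without replicate 3, and with the wild-type well A2 as the only reference. *prp4*, a protein kinase of the spliceosome, had 37.2, 31.4, 48.9 and 43.5 CPM, compared with 17.9, 23.3 and 33.6 CPM as lowest, median and highest in wild type. It was 0.75 ± 0.20 higher on the log2 scale, with 1 library inside the wild-type range, and missed the adjusted threshold (adjusted p = 0.057 by limma with Benjamini-Hochberg adjustment, 0.029 to 0.25 over the alternatives). Its call was lost without *dbr1* replicate 3 or 4, and with the wild-type libraries of either well alone. Without *dbr1* replicate 3, 0 members were called.

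Over all 94 strains, calls were few. Of 3758 member and strain combinations, 31 were called higher and 7 lower, or 1.01% (0.825% higher and 0.186% lower), while 3.57% of the 514421 combinations over all genes were called (2.1% higher and 1.46% lower). Of the 38 calls, 32 also had an adjusted p below 0.05, and in 21 the strain libraries did not overlap those of wild type. The matching shares among the calls over all genes are not given here, so both counts only describe the member calls. In this fit, which has no block for the replicate number, the calls fell on 18 members and 17 strains, and 22 tested members were called in 0 strains. The share of all genes called in 0 strains is not given here. With the number as a block, 9 calls outside the 38 were made and are not named, so these counts hold for this fit only. The direction was positive in 1807 of the 3758 combinations. Leaving out 1 of the strain replicates gave between 33 and 53 calls, and without strain replicate 4 the number called lower rose from 7 to 26. With the wild-type libraries of well A2 alone, 13 were higher and 3 lower. Each replicate number covers the same well positions, apart from the wild-type well A2. With the number as a block, 33 were called higher and 5 lower, 29 of them among the 38 above. An unblocked fit of those libraries gave 19 higher and 5 lower. The shares over all genes under these other settings are not given here, so the counts only describe the member calls.

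The share of calls differed between the functional lists and was below the 3.57% of all genes in each. Factors of the later steps and helicases had 15 higher and 4 lower calls in 1221 tests (1.56%), the Prp19-complex list 12 higher and 1 lower in 1315 (0.989%), the U5 and tri-snRNP list 3 higher and 2 lower in 658 (0.76%), and the early recognition list 1 higher and 0 lower in 470 (0.213%). Another 55 spliceosome genes that bear other names, among them *cdc5*, *spp42*, *brr2* and the Sm and LSm protein genes, had 58 higher and 33 lower calls in 4887 tests (1.86%). In the list of later steps and helicases, 7 of the higher calls were of *cwf16* and all 4 lower calls of *cwf19*. Most of its other higher calls were in the *rpl1801* deletion. These counts are descriptions, since members of a list share strains and wild-type libraries.

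**Figure D3:**
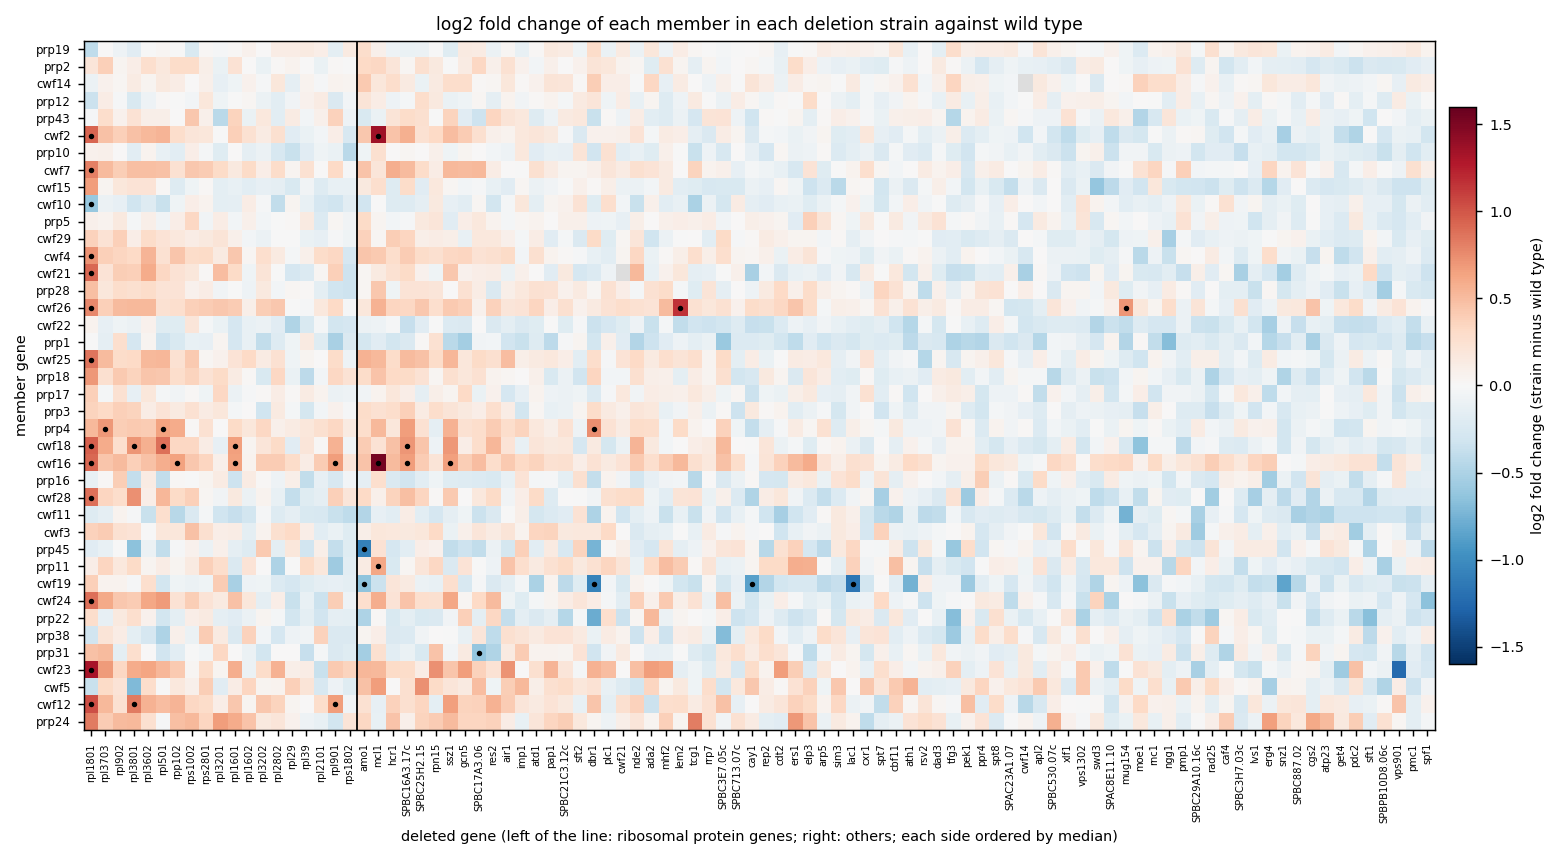
Heat map of the log2 fold change against wild type (colour) of 40 members (vertical axis) in 94 deletion strains (horizontal axis; 19 ribosomal protein deletions left of the line, 75 others right, each side ordered by the members' median). Dots mark the 38 calls; 13 of them are in the rpl1801 column, and grey cells are a deleted gene in its own strain.

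The strain deleted for *rpl1801*, which encodes protein L18 of the large ribosomal subunit, had the most member calls, 12 higher and 1 lower of 40. In this strain 21.6% of 5504 genes were called, 11.9% as higher. The *rpl1801* transcript itself lay between 119.1 and 517.6 CPM, below the 2787.3 to 4194.5 CPM of wild type. The median log2 fold change of the members was 0.37, compared with 0.06 over all genes and 0.33 over 52 other spliceosome genes, of which 10 were called higher and 3 lower. Without this strain, 19 higher and 6 lower calls remained in the other strains.

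The members that rose in the *rpl1801* deletion were *cwf2*, *cwf4*, *cwf7*, *cwf12*, *cwf16*, *cwf18*, *cwf21*, *cwf23*, *cwf24*, *cwf25*, *cwf26* and *cwf28*, and all 12 passed an adjusted p below 0.05. With the replicate number as a block, *cwf24* (0.81 ± 0.23, adjusted p = 0.026 by limma with Benjamini-Hochberg adjustment) and *cwf28* (0.78 ± 0.22, adjusted p = 0.025) no longer had p at or under 0.005. *cwf23* had 24.9, 24.8, 31.8 and 14.4 CPM, compared with 5.24, 10.3 and 14.1 CPM as lowest, median and highest in wild type. The groups did not overlap, although the lowest strain library came close to the highest of wild type. Its log2 fold change was 1.31 ± 0.28 (adjusted p = 0.0033 by limma with Benjamini-Hochberg adjustment, 0.00046 to 0.030 over the alternatives). *cwf12* had 17.9, 19, 19.7 and 18.5 CPM, compared with 7.18, 8.99 and 15.2 CPM in wild type, so all 4 libraries lay above wild type within a narrow range. The log2 fold change was 1.04 ± 0.18 (adjusted p = 0.00086 by limma with Benjamini-Hochberg adjustment, 0.00012 to 0.013 over the alternatives).

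*cwf18*, a small component of the Prp19-associated complex, had 47.0, 35.4, 41.4 and 43.1 CPM in the *rpl1801* deletion, compared with 14.4, 21.9 and 32.6 CPM as lowest, median and highest in wild type. Each strain library was above every wild-type library, with a log2 fold change of 0.96 ± 0.19 (adjusted p = 0.0019 by limma with Benjamini-Hochberg adjustment, 8.9e-05 to 0.026 over the alternatives). In the *rpl501* deletion, which lacks a gene for protein L5, it had 34.7, 40.6, 37.5 and 44.9 CPM and a log2 fold change of 0.88 ± 0.19 (adjusted p = 0.0075 by the same limma fit with Benjamini-Hochberg adjustment, 0.0027 to 0.069 over the alternatives). It was also called higher in the *rpl3801*, *rpl1601* and SPBC16A3.17c deletions, at log2 fold changes of 0.70, 0.66 and 0.71, with some libraries inside the wild-type range. These calls were kept in 18, 12 and 17 of 22 alternatives, and that in SPBC16A3.17c was lost under the replicate block (0.65 ± 0.19, adjusted p = 0.045 by limma with Benjamini-Hochberg adjustment). With all other deletion strains as reference in place of wild type, the 5 strains gave log2 fold changes of 0.61 to 0.91, all of them called.

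The member that fell in the *rpl1801* deletion was *cwf10*, the U5 snRNP GTPase. It had 33.2, 29.1, 22.2 and 36.6 CPM, compared with 38.3, 43.8 and 54.7 CPM as lowest, median and highest in wild type. No library overlapped, and the log2 fold change was -0.61 ± 0.15, just past the threshold (adjusted p = 0.0074 by limma with Benjamini-Hochberg adjustment, 0.0013 to 0.060 over the alternatives). It was called in 13 of the 22 alternatives, and not under the replicate block (-0.61 ± 0.18, unadjusted p above the threshold, adjusted p = 0.033 by limma with Benjamini-Hochberg adjustment).

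The largest single changes were in the deletion of *mcl1*, the orthologue of the replication factor Ctf4, in which 3 of 40 members were called, all higher, and 8.78% of 5478 genes. *cwf16* (SPAC9.13c, I:1488610-1489774 in ASM294v2), a member of the Yju2 family of step-one factors, had 55.7, 63.5, 68.1 and 64.8 CPM in these libraries. In wild type its lowest, median and highest values were 16.7, 21.1 and 29.6 CPM, so that the lowest strain library was well above the highest of wild type. It was 2.90-fold higher (log2 fold change 1.53 ± 0.15, adjusted p = 6.4e-05 by limma with Benjamini-Hochberg adjustment, 2.2e-12 to 0.0051 over the alternatives). *cwf2* (SPAC3A12.11c, I:1439245-1440658), an RNA-binding protein at the catalytic centre, had 95.6, 85.6, 155.6 and 129.5 CPM, compared with 29.3, 46.3 and 62.1 CPM in wild type. Again no library overlapped, at 2.56-fold (log2 fold change 1.35 ± 0.22, adjusted p = 0.0016 by limma with Benjamini-Hochberg adjustment, 6.5e-08 to 0.024 over the alternatives). The sequences before the RefSeq starts of both genes are printed above. Those starts (ASM294v3) need not match the gene bounds of the deposited table (ASM294v2). The printed windows reach down to I:1489756 (*cwf16*) and I:1440559 (*cwf2*), while the table ends these genes at 1489774 and 1440658. If positions are alike in both assemblies, part of each window lies inside the gene as bounded in the table. The third was *prp11*, a DEAD-box helicase, with 26.4, 17.3, 21.5 and 25 CPM against a wild-type range of 11.5 to 21.2 CPM (log2 fold change 0.62 ± 0.19, adjusted p = 0.046 by limma with Benjamini-Hochberg adjustment, 0.022 to 0.23 over the alternatives). It was called in 5 of 22 alternatives, and not under the replicate block (0.52 ± 0.20).

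*cwf16* had the most calls of any member, higher in 7 strains and lower in 0. Besides *mcl1* these were the deletions of *rpl1801*, *rpl901*, *rpl1601*, *rpp102*, *ssz1* and SPBC16A3.17c. The call in *rpp102* was lost under the replicate block (0.59 ± 0.18). In the *rpl901* deletion it had 35.6, 29.9, 36.3 and 36.6 CPM (log2 fold change 0.67 ± 0.15, adjusted p = 0.014 by limma with Benjamini-Hochberg adjustment, 0.0063 to 0.16 over the alternatives). In the deletion of *ssz1*, an Hsp70-like chaperone of the ribosome, it had 33.8, 35.6, 35.1 and 32.5 CPM (log2 fold change 0.66 ± 0.15, adjusted p = 0.0078 by limma with Benjamini-Hochberg adjustment, 0.0028 to 0.11 over the alternatives). All of these libraries lay above the 29.6 CPM of the highest wild-type library. The wild-type mean of *cwf16* was itself low, with 6 of the 94 strain means below it. With the other deletion strains as reference, the log2 fold changes were 1.26 in *mcl1*, 0.63 in *rpl1801*, 0.38 in *rpl901* and 0.37 in *ssz1*, and only the *mcl1* and *rpl1801* deletions passed the thresholds among the 7 strains.

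**Figure D4:**
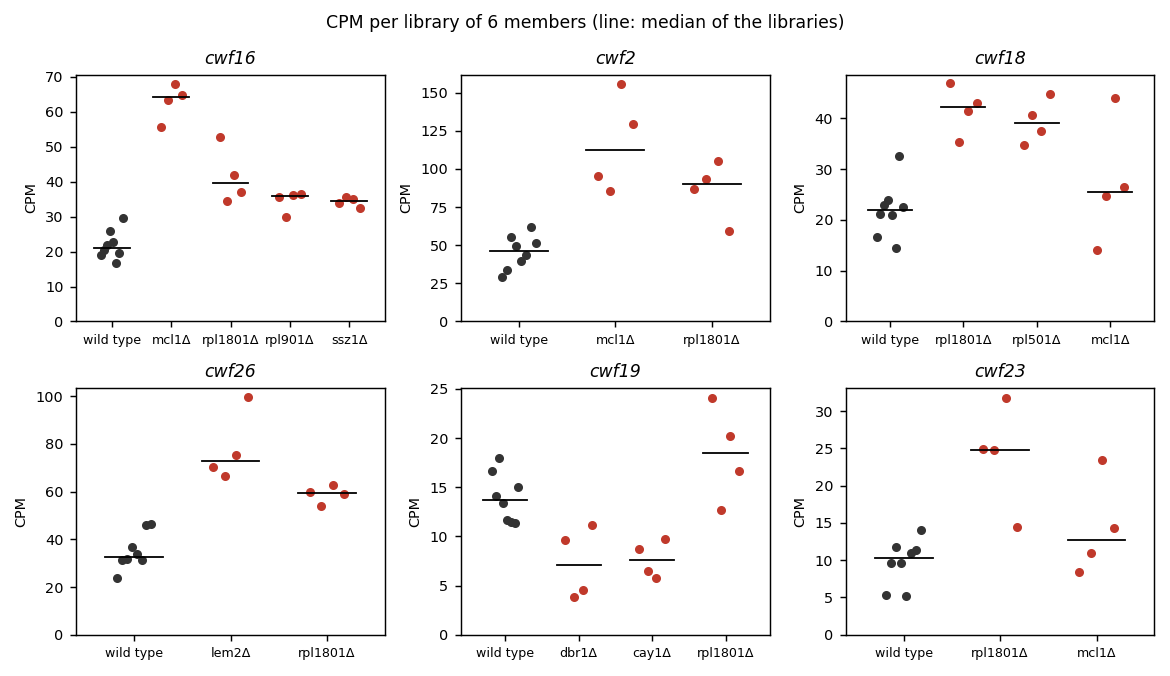
CPM per library of cwf16, cwf2, cwf18, cwf26, cwf19 and cwf23 in 8 wild-type libraries (dark) and 4 libraries of each strain shown (red); lines are medians and each vertical axis starts at 0. In the mcl1 deletion all 4 cwf16 libraries (55.7 to 68.1 CPM) and all 4 cwf2 libraries (85.6 to 155.6 CPM) are above wild type.

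*cwf26*, the Bud13 orthologue of the RES complex, was called higher in 3 strains. In the libraries labelled as deleted for *lem2*, an inner nuclear membrane protein, it had 70.3, 66.6, 75.2 and 99.7 CPM, compared with 23.9, 32.8 and 46.6 CPM as lowest, median and highest in wild type. All 4 libraries were above wild type, at a log2 fold change of 1.16 ± 0.19 (adjusted p = 0.0039 by limma with Benjamini-Hochberg adjustment, 1.3e-05 to 0.11 over the alternatives). It was the single member called of 40 in that strain, in which 2.78% of 5477 genes were called. The other strains were the *rpl1801* deletion and the one labelled as deleted for *mug154*, at log2 fold changes of 0.77 and 0.71, and with the other deletion strains as reference these fell to 0.57 and 0.51. *cwf26* overlaps *tfg1* and SPCC1620.12c on the opposite strand.

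*prp4* was called higher in 3 strains, the *dbr1*, *rpl3703* and *rpl501* deletions. In the *rpl3703* deletion it had 38.3, 36.8, 51.5 and 30 CPM (log2 fold change 0.70), and the call was kept in 8 of 22 alternatives. It was lost there without strain replicate 1, 2 or 3, without each of 6 single wild-type libraries, and with either wild-type well alone. In the *rpl501* deletion it had 34.7, 36.4, 38.9 and 37.3 CPM, all just above the highest wild-type library at 33.6 CPM (log2 fold change 0.64 ± 0.18, adjusted p = 0.031 by limma with Benjamini-Hochberg adjustment, 0.014 to 0.12 over the alternatives), and the call was kept in 8 of 22 alternatives. *cwf12* was called higher in 3 strains and *cwf2* in 2. Besides *rpl1801* these were the *rpl3801* and *rpl901* deletions for *cwf12*, at log2 fold changes of 0.83 and 0.67, and the *mcl1* deletion for *cwf2*. The *cwf12* call in *rpl901* was kept in 6 of 22 alternatives and lost with median centring, with either wild-type well alone, and without any single wild-type library other than replicate 4 of well A1. The call in *rpl3801* was kept in 20 and lost with the other deletion strains as reference and with well A1 alone.

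Calls of lower expression were led by *cwf19*, with 4 strains. Besides the *dbr1* libraries, it was lower in the deletion of *cay1*, the fission yeast cactin, with 8.75, 6.49, 5.79 and 9.77 CPM against 11.4 to 18 CPM in wild type (log2 fold change -0.87 ± 0.18, adjusted p = 0.010 by limma with Benjamini-Hochberg adjustment, 0.0066 to 0.16 over the alternatives). The call was lost with the other deletion strains as reference, at -0.67, and with the wild-type libraries of well A2 alone. In the *lac1* deletion the values were 10.7, 6.97, 9.4 and 2.1 CPM (log2 fold change -1.16, adjusted p = 0.54), and the call was kept in 6 of 22 alternatives, and not under the replicate block (-1.32 ± 0.36). In the libraries labelled as deleted for *amo1* they were 9.34, 6.58, 8.95 and 11 CPM (-0.65, adjusted p = 0.054). The wild-type mean of *cwf19* was high among the strains, with 81 of 94 strain means below it.

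*cwf10*, *prp31* and *prp45* were called lower in 1 strain each. *prp45*, the SKIP orthologue of the Prp19-associated complex, had 8.36, 6.58, 2.98 and 11.5 CPM in the libraries labelled as deleted for *amo1*, against 8.34 to 22.1 CPM in wild type, with overlap (log2 fold change -1.08 ± 0.31, adjusted p = 0.071 by limma with Benjamini-Hochberg adjustment, 7 of 22 alternatives called, -0.96 ± 0.32 and not called under the replicate block). *prp31*, a U4/U6 snRNP protein, had 6.23, 9.49, 5.78 and 7.23 CPM in the SPBC17A3.06 deletion, against 8.33 to 13.2 CPM (-0.62 ± 0.17, adjusted p = 0.064, 6 of 22 alternatives called, -0.57 ± 0.13 and not called under the replicate block).

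A comparison among the 94 strains that uses no wild-type library asked which members varied beyond the spread of replicates. Each strain kept 1 well position, so differences between strains cannot be told apart from differences between well positions. The effect of position was not tested. By limma's moderated F test with Benjamini-Hochberg adjustment below 0.05, 25 of 40 members (62.5%) varied among strains, compared with 73.2% of 5537 genes. In this test the spread within a strain includes differences shared by all libraries of a replicate number. With the number as a block, 36 of 40 members (90%) varied, compared with 91.1% of the same genes. Without the block the count fell to between 11 and 13 without replicate 1, 2 or 3 and was 30 without replicate 4. The shares over all genes in these fits are not given here, so the counts only describe the members. The median SD between strains was 0.10 on the log2 scale for members and 0.15 for all genes, beside 0.35 and 0.36 within strains, and under the block it was 0.14 and 0.17, beside 0.28 and 0.30. The largest SD between strains belonged to *cwf18* (0.27, F = 4.18, adjusted p = 1.2e-19), beside a within-strain SD of 0.30. *cwf23* (0.25), *cwf2* (0.23), *cwf21* (0.22, F = 3.42, adjusted p = 1.4e-14) and *cwf24* (0.20) followed. *cwf28* (0.20) and *cwf16* (0.20, F = 3.25, adjusted p = 1.3e-13) came next. *cwf21* ranged from a strain mean of 23.4 CPM in the *snz1* deletion to 64.4 CPM in the *rpl1801* deletion, and *cwf18* from 13.6 CPM (*moe1*) to 41.5 CPM (*rpl1801*). For *prp22*, *cwf22*, *prp1* and *cwf11*, which include the late helicase and the U5 protein orthologous to Prp6, the estimated SD between strains was 0. Under the block it was 0.14 for *prp22*, which then varied (adjusted p = 0.0031 by limma's F test with Benjamini-Hochberg adjustment), and 0.05, 0.07 and 0.03 for *cwf22*, *prp1* and *cwf11*, which did not pass, nor did *prp24*.

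Ribosomal protein genes formed the largest class among the deletions, 19 strains named rpl, rps or rpp, and the members were compared between these and the 75 other strains, with the strain mean as the unit. Each strain kept 1 well position. The deletions of *rpl1602*, *rps2801*, *rpl3703*, *rpl1801*, *rpl3801* and *rps1002* lay in wells A5, A6 and A8 to A11. Well position can therefore not be fully told apart from the deletions, and its effect was not tested. By limma with Benjamini-Hochberg adjustment below 0.05, 21 of 40 members (52.5%) were higher in the ribosomal protein deletions and 0 were lower, while 21.1% of 5470 genes were higher and 19% lower. The differences were small: the median over members was 0.12 on the log2 scale, compared with 0.00 over all genes, and 33 of 40 were positive. Of the other spliceosome genes, 28 of 52 (53.8%) were higher and 5 lower, with a median of 0.12. By list, 9 of 13 later factors and helicases, 7 of 14 Prp19-complex genes, 2 of 7 U5 and tri-snRNP genes and 2 of 5 early recognition genes were higher, as was *prp24*. The replicate numbers taken singly gave 12, 11, 11 and 4 members higher and 0 lower. Without *rpl1801* 16 members were higher, and leaving out any other single ribosomal protein strain gave 19 to 23 members past the threshold, at most 1 of them lower. The comparison was also limited, in both groups, to strains whose deleted gene was lower than wild type in its own libraries. Of these 27 strains 14 were ribosomal protein deletions, and 15 members were higher and 0 lower. For the counts by replicate number and in these subsets of strains, the shares over all genes are not given here.

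*cwf18* showed the largest difference and the smallest p. Its strain means had 18.8 CPM as the lowest, 26.4 as the median and 41.5 as the highest in the 19 ribosomal protein deletions, and 13.6, 20.8 and 35 CPM in the 75 others. The ranges overlapped widely, while 16 of the 19 were above the median of the others, and the difference was 0.34 ± 0.07 on the log2 scale (SE, adjusted p = 0.00021, limma with Benjamini-Hochberg adjustment, 0.26 to 0.42 by replicate number, adjusted p 6.4e-05 to 0.020 over the alternatives). *cwf4*, the Syf3 orthologue, had strain means of 30.3 to 60.4 CPM with a median of 44.9 in the ribosomal protein deletions and 27.1 to 49.7 CPM with a median of 36.2 in the others, with 17 of 19 above that median. Its difference was 0.25 ± 0.05 (adjusted p = 0.00024 by limma with Benjamini-Hochberg adjustment, 7.1e-05 to 0.021 over the alternatives). *cwf21* had medians of 39.7 CPM in the 19 strains and 31.7 CPM in 74 others, with 16 of 19 above, a difference of 0.29 ± 0.06 (adjusted p = 0.00028 by limma with Benjamini-Hochberg adjustment, 7.5e-05 to 0.028 over the alternatives).

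The next 5 members by p were *prp18*, a second-step factor (0.27 ± 0.06), *prp4* (0.25 ± 0.06), *cwf7*, the Spf27 orthologue (0.22 ± 0.05), *cwf12* (0.27 ± 0.06) and *cwf28* (0.26 ± 0.07). Between 14 and 17 of the 19 ribosomal protein strains lay above the median of the other strains for each of them. Each was positive in every replicate number taken singly, and their adjusted p stayed below 0.05 in all alternatives that used at least 3 replicate numbers, the highest being 0.032. With 1 replicate number alone each of the 5 missed the threshold at least 1 time. At the other end, *cwf10* (-0.09 ± 0.04), *cwf5* (-0.08 ± 0.07) and *prp19* (-0.06 ± 0.03) had negative differences that did not pass. In the *rpl1801* deletion, *prp19* and *prp12* had their lowest strain means of all (69.4 and 46.3 CPM), and neither was called.

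**Figure D5:**
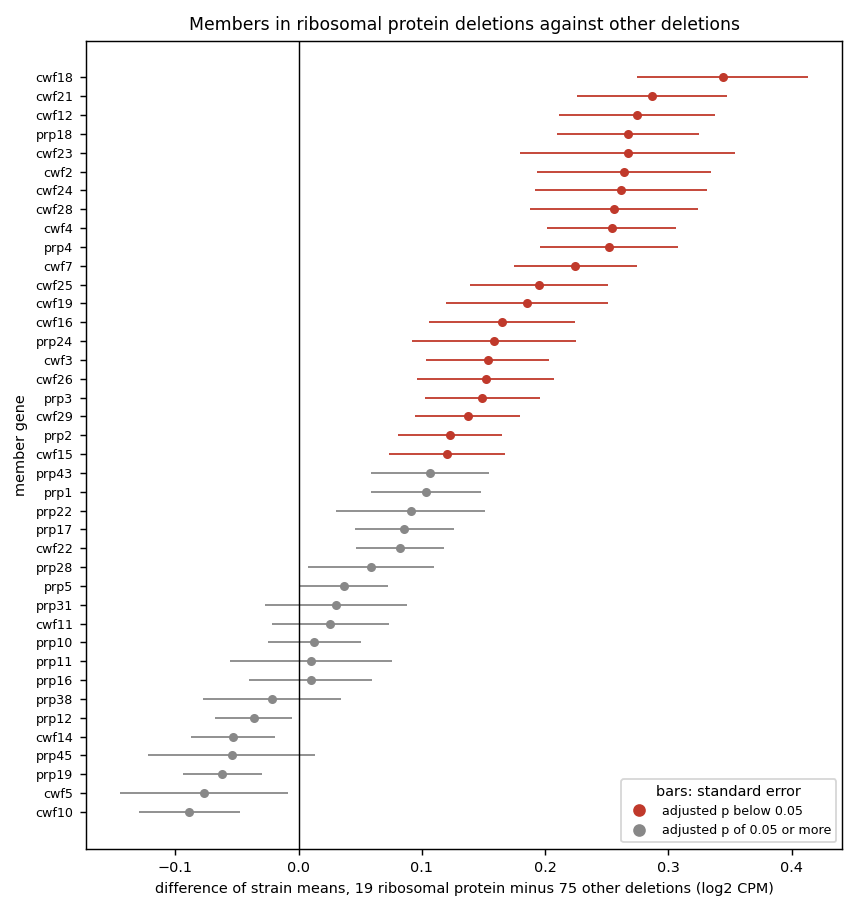
Difference of the mean log2 CPM between 19 ribosomal protein deletions and 75 other deletions for each of 40 members (horizontal axis), with the standard error as bars; red marks an adjusted p below 0.05. The 21 red members are all to the right of 0, from cwf15 (0.12) to cwf18 (0.34).

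Across the strain means, members tended to move with each other. Over 780 pairs of 40 members the median Pearson correlation was 0.18, and 111 pairs (14.2%) exceeded 0.5, beside a median of 0.00 and 3.53% over all pairs of 5256 genes. The closest pairs were *cwf4* with *cwf18* (r = 0.77), *cwf2* with *cwf25* (r = 0.76), *cwf25* with *cwf18* (r = 0.75) and *cwf2* with *cwf16* (r = 0.74), each over 94 strains. Of these 5 genes, *cwf2* and *cwf16* overlap no other annotated gene. The most opposed pairs were *cwf10* with *cwf12* (r = -0.52) and *cwf10* with *cwf18* (r = -0.50). Single strains enter these values: the *mcl1* deletion had the highest strain mean of both *cwf2* and *cwf16*, and the *rpl1801* deletion that of *cwf4*, *cwf18* and *cwf25*. Correlations without these strains are not given here. The strain means share libraries and their scaling, and these values are descriptions.

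Some deleted genes neighbour a member. The nearest was *rps1002*, 217 bases from *prp5*, the Prp46 orthologue, which was 0.33 ± 0.15 higher on the log2 scale in that strain. *hcr1* lies 1309 bases from *cwf2*, which was 0.46 ± 0.21 higher in the libraries labelled as deleted for *hcr1*. Neither passed the thresholds, and 4 more members within 10000 bases of a deleted gene had log2 fold changes between -0.10 and 0.07.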

How the data were processed

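RNA of 94 deletion strains and wild type was sequenced by 3′ mRNA-Seq in 384 libraries. The submitters' processing notes name STAR (2.6.1b), HTSeq (0.9.0) and Subread (1.6.2) with the build ASM294v2; the program that counted reads and its strand setting are not given in the sources used here. The authors deposited CPM that lacked the decimal point from 1 upwards, entered here as an unnamed unit. Each value was placed where it was a whole number of reads of its library; 10.7% had several such positions and were placed nearest to the strain's other libraries, with 0.042% wrong in simulated libraries. Values under 1.01 CPM were removed, and a gene was kept with 75% of values per group, 3 of 4 and 6 of 8. No value was imputed.

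The test of each strain against wild type was limma (3.58.1, R 4.3.3) over all genes, on log2-transformed CPM, and was tested on simulated data. The thresholds and the number of the floor follow the study's methods, which describe it as a low quantile of CPM. The first quartile of the restored values was 2.01 CPM, and its log2 is the 1.01 used here as CPM. The floor at 2.01 CPM was an alternative (39 calls). Per the labels, each replicate number covers the same well positions, except that well A2 has no library numbered 1 and repeats the number 2. Libraries sharing a number deviated together (median r = 0.27 over 4593 genes, compared with -0.10 for different numbers, with 88.3% of all such pairs and 95.7% of those of wild type with a strain above 0.1). The number was therefore read as a batch, and values with it as a block are given where a call was lost. Another 9 calls were made under the block alone and are not named. Strain variation was tested by a moderated F test, and ribosomal protein against other deletions on strain means. Whole reads were not tested as counts, since the scaling of the deposited values is not that of a plain CPM. The alternatives were another floor, none with 1 added, median centring, adjusted p, a replicate block, other strains as reference, ambiguous values left out and each library left out. Named were the members highest and lowest in wild type, those with most calls, the 12 largest non-overlapping changes with adjusted p below 0.05 (at most 3 per member and strain), members called in the *cwf14* and *dbr1* deletions and the 8 smallest p between ribosomal protein and other deletions; other called members and neighbours of deleted genes were added after their values were seen. The members and lists were chosen with earlier results of these data known.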

Additional observations from a re-analysis of the deposited data

Results flagged for a closer look

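Of 29 groups of 4 or 8 libraries behind the named values, 2 held a library far from the rest, and chance alone flags about 1 in 20 groups. *cwf12* had 15.2 CPM in replicate 4 of the wild-type well A1, while the other 7 wild-type libraries lay between 7.18 and 9.88 CPM. *cwf16* had 29.9 CPM in replicate 2 of the *rpl901* deletion, while the other 3 libraries lay between 35.6 and 36.6 CPM.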

How the results depend on the processing

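Members called over all strains, 38 with 31 higher and 7 lower, numbered 31 to 39 with no floor (29 higher, 2 lower), a higher floor, median centring (29 and 8), an adjusted p below 0.05 in place of p (34 and 3), ambiguous values left out and the other deletion strains as reference (24 and 10). Leaving out single libraries gave 30 to 53. After the data were seen, the wild-type wells were used singly, which gave 35 calls with A1 and 16 with A2, and 25 calls remained without the *rpl1801* strain. In the *dbr1* libraries 2 members were called, 1 with adjusted p, 1 with well A1, 0 with well A2, and 0 to 3 without single libraries. The counts in the *cwf14* and *cwf21* libraries were 0 to 0. Members varying among strains numbered 25, and 11 to 30 without 1 replicate number. Between ribosomal protein and other deletions 21 differed, 18 to 21 without 1 replicate number, and 12, 11, 11 and 4 with replicate 1, 2, 3 and 4 alone. With the replicate block, for which 2 wild-type libraries of replicate 2 in well A2 were left out, 38 calls were made over all strains (33 higher, 5 lower), compared with 24 (19 and 5) in the same libraries without it. In *dbr1* these fits gave 2 and 1, in *cwf14* and *cwf21* 0 and 0. With the block 36 of 40 members varied among strains, and with 1 added to CPM as well, chosen after the data were seen, 36 of 41. Of the 38 calls 9 were lost under the block, each named with its value in the results, and no other call was. The block alone made 9 further calls, which are not named. Over all 38 calls and the alternatives run on each, 634 of 835 results kept the call and 201 lost it, and 9 calls were kept throughout. The 13 changes with a full account, 12 of which were chosen for non-overlap and adjusted p, kept 256 of 286, lost 30 and reversed 0. Of the 8 named ribosomal protein differences, 232 of 240 kept it, 8 lost it and 0 reversed. The shares over all genes under these settings are not given here, apart from that of the F test with the block. The cause of these shifts was not tested. Low members such as *prp24* and *cwf12* rest on few reads, and *cwf20* was testable at this depth only without the floor.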
